A study of Mus musculus with 59 samples.

Results

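The core pluripotency factors are 10 genes that were taken by symbol from the RNA-seq counts of 14 single mouse epiblasts: Pou5f1, Sox2, Sall4, Zfp281, Utf1, Lin28a, Lin28b, L1td1, Dppa4 and Dppa2. They are 10 of the 22119 gene symbols listed in these counts. Each gene is given by its listed transcript with the highest mean raw count, and all 10 were listed and tested in both crosses. Loss of Ehmt2 was accompanied by higher Dppa4, from 2.10 ± 0.714 CPM in controls to 9.14 ± 3.48 CPM in knockouts (CPM, counts scaled to a common library size, mean ± SD, n = 4 each). It was the 1 gene of the 10 with an adjusted p under 0.05 in edgeR's quasi-likelihood test, against 0.67% of all transcripts tested. That call was lost in some alternative fits, such as those without control 3 (edgeR adjusted p = 0.0646) and with an extraembryonic marker covariate (0.131). The Ehmt2 knockouts, at 6.67 to 14.3 CPM, also overlapped the controls of the Ezh2 cross, at 5.89 to 7.31 CPM. Dppa2, the neighbour of Dppa4, was at 0.744 ± 0.822 CPM and 5.02 ± 3.36 CPM and missed the adjusted threshold of 0.05. Of the 10 genes, 0 passed it in Ezh2 knockouts, by edgeR and by DESeq2 alike, against 0.0118% of all transcripts by edgeR. There, 1 of 10, Lin28b, had an unadjusted p under 0.05 by edgeR, against 7.02%. All 10 estimates in that cross lay within 0.5 of 0 on the log2 scale, as did 8 of 10 in the Ehmt2 cross. With 3 epiblasts a group, some 95% intervals in the Ezh2 cross reached further, such as -0.84 to 1.14 for Dppa2.

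The epiblast of the egg cylinder is the pluripotent tissue that gives rise to the body of the embryo. POU5F1 (OCT4) and SOX2 bind neighbouring DNA sites together and maintain the pluripotent state, and SALL4, ZFP281 and the chromatin-bound protein UTF1 act with them in embryonic stem cells. LIN28A and LIN28B bind the precursors of let-7 microRNAs and hold back their maturation, and L1TD1 is an RNA-binding protein derived from a LINE-1 retrotransposon. DPPA2 and DPPA4 are partner proteins with SAP domains that bind chromatin in pluripotent and germ cells. Ehmt2 encodes G9a, which dimethylates histone H3 at lysine 9, and Ezh2 encodes the methyltransferase of the Polycomb complex that trimethylates histone H3 at lysine 27. Both marks are associated with silenced genes.

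Each library was made from the epiblast of 1 embryo at E6.25 (embryonic days after conception) on a mixed genetic background, without treatment. The Ehmt2 cross gave 4 controls and 4 knockouts (G9a-/- in the labels), and the Ezh2 cross gave 3 controls and 3 knockouts (Ezh-/-). The labels call the controls G9a+/+ and Ezh+/+, whereas the study's methods also allow heterozygotes among them. The embryos came from heterozygous intercrosses, from 4 litters for Ehmt2 and 3 for Ezh2, and which control shared a litter with which knockout is not given in the sources used here. The Ehmt2 matings used a conditional allele and the Ezh2 matings another previously described allele. Ehmt2+/- mice were also bred to carry a reporter in which Pou5f1 regulatory sequence drives EGFP, and it is not given which of these epiblasts carry it, so its part in the Pou5f1 counts was not tested. Amplification started from 750 pg of RNA per library. RNA integrity and, by qPCR of the cDNA, Pou5f1, Nanog, Ehmt2 and Ezh2 had been checked before the libraries were made. In such tissue samples, fewer cells of a type and less RNA per cell cannot be told apart.

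The counts summed to 30161171 to 68464895 per epiblast over all transcripts (median 36402426.5). Control 4 and knockout 4 of the Ehmt2 cross stood apart from the rest, since between 2 epiblasts of a group, the chi-square of the counts divided by its degrees of freedom was 156 to 206 where a number 4 was in the pair and 17.7 to 47.6 otherwise. The study's source data compare this knockout with this control alone, whereas its methods describe a comparison of each knockout with all controls. The Ehmt2 model here had a term for the set of 2, and results are also given without it where that ended a call. Ehmt2 had 10.5, 11.2, 15.8 and 34.0 CPM in its controls and 4.83, 4.54, 3.29 and 9.78 CPM in its knockouts (log2 fold change -1.63, SE 0.21, edgeR adjusted p = 0.0045). Ezh2 had 51.6, 64.9 and 108 CPM in its controls and 11.4, 11.6 and 16 CPM in its knockouts (log2 fold change -2.52, SE 0.27, edgeR adjusted p = 0.0160). The 6 epiblast markers were above 0 in every epiblast. Their summed level was 2295 to 2667 CPM in Ehmt2-cross controls and 1336 to 1948 in Ehmt2 knockouts. It was 2316 to 2463 in Ezh2-cross controls and 1839 to 2482 in Ezh2 knockouts. Most of the sum was Dnmt3b, with a mean of 1789 CPM in Ehmt2-cross controls and 1267 CPM in their knockouts. By mean log2 level (of CPM + 0.5), the Ehmt2-cross groups overlapped, at 7.02 to 7.36 in controls and 6.50 to 7.18 in knockouts.

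Genes were first ordered by level in the controls, since levels of different genes can be compared only per length. In the Ehmt2-cross controls, Utf1 was highest with 143 ± 28.5 CPM per kb of transcript (SD, n = 4). Pou5f1 (136 ± 53.3), Lin28a (109 ± 24.8) and L1td1 (92.1 ± 10.2) followed, and the ranges of neighbours among these 4 genes overlapped. Each next gene had controls entirely below those of the gene before it: Sall4 with 58.9 ± 3.74, Lin28b with 21.2 ± 2.16, Zfp281 with 13.8 ± 1.27, Sox2 with 9.31 ± 1.41, Dppa4 with 1.42 ± 0.483 and Dppa2 with 0.382 ± 0.422 CPM per kb. Dppa4 and Dppa2 were thus far below the other members, at the 38.5 and 16.8 percentile of the tested genes, whereas the other 8 were at the 78.6 percentile or above.

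In the Ezh2-cross controls, Lin28a (111 ± 3.99 CPM per kb, SD, n = 3), Pou5f1 (104 ± 10.6), Utf1 (93.5 ± 11.3) and L1td1 (83.3 ± 15.1) again held the top of the order, with overlapping neighbours. The order from Sall4 (51.7 ± 1.63) through Lin28b (20.1 ± 2.62), Zfp281 (14 ± 3.02) and Sox2 (7.03 ± 1.05) to Dppa4 (4.32 ± 0.539) and Dppa2 (2.37 ± 1.06) was that of the other cross, with an overlap between Lin28b and Zfp281. In this cross Dppa4 and Dppa2 were at the 63.9 and 50.4 percentile of the tested genes, and Sox2 was at the 74.5 percentile. Sall4 varied least between controls in both crosses, with a coefficient of variation of 6.35% and 3.15%, and Dppa2 most, with 110% and 44.8%.

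**Figure D1:**
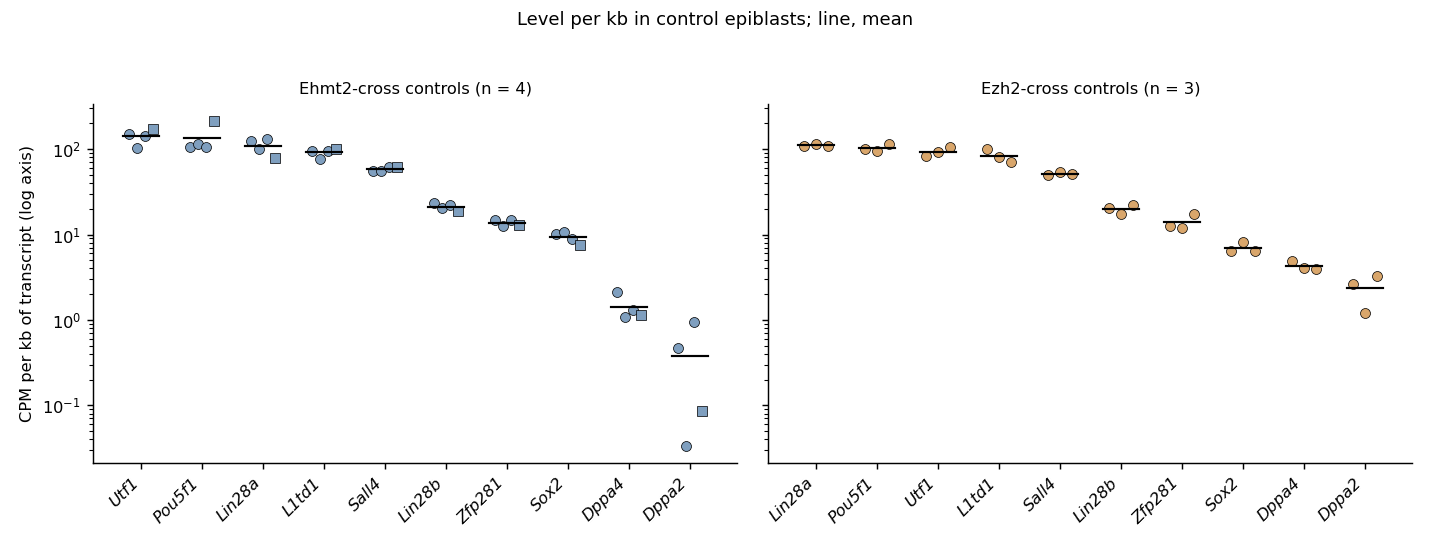
Level of each gene in control epiblasts, in CPM per kb of transcript on a log axis, for the Ehmt2 cross (left, 4 epiblasts) and the Ezh2 cross (right, 3 epiblasts). Points are epiblasts, squares are the Ehmt2-cross epiblast numbered 4 and lines are means. Utf1, Pou5f1, Lin28a and L1td1 overlap at the top, and Dppa4 and Dppa2 are lowest in both crosses, at 1.42 and 0.382 CPM per kb on the left and 4.32 and 2.37 on the right.

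Pou5f1, the gene of the POU factor OCT4, lies on chromosome 17 from 35506018 to 35510772 in GRCm38 on the plus strand. Its counted transcript has 5 exons and 1362 bases. The other 5 of its 6 listed transcripts begin further downstream. Of these, 4 begin within 50 bases of the second start given for the gene by RefSeq, and ENSMUST00000173934 begins at 35507482, between the 2 starts. The transcripts share sequence, so their counts do not measure the use of either start. The 250 bases before each RefSeq start are shown because these are the starts that separate the counted transcript from most of the others. The last bases of the first window fall in the first exon. RefSeq's promoter windows (GRCm38.p6) were found for 7 of the 10 genes (Pou5f1, Sox2, Lin28a, Lin28b, Utf1, Zfp281 and L1td1). In capitals is a match to the SOX motif AACAAT.
Pou5f1 first start, chr17:35505782-35506031, plus strand: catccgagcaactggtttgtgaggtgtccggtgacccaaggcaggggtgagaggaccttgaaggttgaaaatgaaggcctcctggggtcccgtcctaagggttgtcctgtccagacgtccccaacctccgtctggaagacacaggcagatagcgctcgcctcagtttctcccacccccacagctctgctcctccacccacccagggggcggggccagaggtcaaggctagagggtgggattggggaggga
Pou5f1 second start, chr17:35508557-35508806, plus strand, in the first intron: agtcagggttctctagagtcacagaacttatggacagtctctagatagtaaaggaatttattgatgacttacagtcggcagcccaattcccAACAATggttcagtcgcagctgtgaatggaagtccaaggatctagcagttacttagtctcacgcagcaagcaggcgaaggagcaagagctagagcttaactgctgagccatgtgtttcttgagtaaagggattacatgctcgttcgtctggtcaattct

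Over the 8 windows of 300 bases found for these genes, AACAAT was present on either strand in 1 (the second Pou5f1 window, from base 92), against 10.7% of 32851 windows of the same length. The octamer ATTTGCAT was in 0 of the 8, against 1.74% of all. These counts describe the letters of these windows only.

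With loss of Ehmt2, Pou5f1 went from 145, 158, 143 and 293 CPM (control 1, 2, 3 and 4) to 81.2, 117, 122 and 214 CPM (knockout 1, 2, 3 and 4). Epiblast 4 was highest in each group, and the groups overlapped, but each knockout was below the mean of the controls of its own set, by 0.28 to 0.87 on the log2 scale of CPM + 0.5. The log2 fold change was -0.47 (SE 0.13), which did not pass the threshold after adjustment over all 49872 tested transcripts (edgeR's quasi-likelihood test, adjusted p = 0.145, unadjusted p = 0.0029). DESeq2 called it (adjusted p = 0.029), and the edgeR estimate was -0.20 (adjusted p = 0.656) after a covariate was added, the average log2 level of 11 markers of extraembryonic ectoderm. This level was 4.39, 2.90, 3.06 and 0.30 in Ehmt2 knockouts 1 to 4 and 0.14 to 1.06 in their controls. In the Ezh2 cross it was 1.04 to 2.34 in knockouts and 0.21 to 0.81 in controls. The covariate thus varied largely with genotype, and fits that include it cannot fully tell them apart.

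Each of the other 5 Pou5f1 transcripts had 25.5% to 25.7% of the mean count of the chosen one and a log2 fold change of -0.54, beside -0.47 for the chosen one. They share sequence and are not independent measures. Pou5f1 also has pseudogene copies elsewhere in the genome, and how reads were divided among them is not stated, so its level carries that uncertainty. Pou5f1 begins 592 kb from the end of Ehmt2 on the same chromosome. Of 52 listed genes that begin between them, 30 were tested, 19 had a log2 fold change below 0 and 0 were called (at an unadjusted p under 0.05, 5 were lower, against 5.62% of all transcripts, and 0 higher, against 6.15%). Their median log2 fold change was -0.11, and 5 of the 30 were lower than Pou5f1.

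In Ezh2-cross epiblasts, Pou5f1 had 137, 129 and 157 CPM in controls and 92.8, 152 and 130 CPM in knockouts. Only knockout 1 was below every control, and the groups overlapped. The log2 fold change was -0.17 (SE 0.17, edgeR adjusted p = 0.890), with a 95% interval of -0.54 to 0.20, and 0.11 (adjusted p = 0.950) with the extraembryonic covariate. Knockout 1 also stood apart in the 12 visceral endoderm markers, which summed to 1106 CPM there and to 46.6 and 38.1 CPM in the other knockouts, beside 38.0, 519 and 28.8 CPM in controls. The part of that tissue in the Pou5f1 and Sox2 values of this cross was not tested.

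Sox2, the HMG-box partner of OCT4, is a gene with a single exon on chromosome 3 (34650405 to 34652461 in GRCm38, plus strand). It lies within the longer noncoding gene Sox2ot on the same strand, and how reads shared with it were assigned is not stated. In the Ehmt2 cross it had 20.6, 22.1, 18.5 and 15.4 CPM in controls and 31.8, 19.3, 25.8 and 16.8 CPM in knockouts. Knockouts 1 and 3 were above every control and the other knockouts were not. Ezh2-cross controls had 13.2, 17 and 13.2 CPM and knockouts 28.6, 12.1 and 12.1 CPM.

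The Sox2 estimates were alike in the Ehmt2 cross (log2 fold change 0.28, SE 0.17, edgeR adjusted p = 0.563) and the Ezh2 cross (0.28, SE 0.32, adjusted p = 0.906), and neither passed the threshold. Sox2 is also active in extraembryonic ectoderm. The 11 markers of that tissue summed to 29.7, 135, 69.1 and 45 CPM in Ehmt2-cross controls and 745, 158, 202 and 28.3 CPM in knockouts. These sums were 80.6, 107 and 65.5 CPM in controls and 157, 206 and 107 CPM in knockouts of the Ezh2 cross. Sox2 was highest in knockout 1 of each cross, which had the highest marker sum in the Ehmt2 cross but not in the Ezh2 cross. By mean log2 level of the markers, the measure used as the covariate, knockout 1 was highest in both crosses (4.39 and 2.34). Of the markers, 5 of 10 tested were called higher in the Ehmt2 cross (0.507% of all transcripts were) and 0 of 9 in the Ezh2 cross, where 7 had an unadjusted p under 0.05. With the extraembryonic covariate, the Sox2 estimates turned to -0.10 and -0.65 (adjusted p = 0.883 and 0.768). The part of this tissue in the Sox2 values was not tested beyond that.

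Sall4 encodes a zinc-finger factor that binds with OCT4 and recruits histone deacetylases. It is on the minus strand of chromosome 2 (168748332 to 168767201 in GRCm38). It had 281, 284, 314 and 316 CPM in Ehmt2-cross controls and 245, 268, 274 and 376 CPM in knockouts. Knockouts 1 to 3 were below every control and knockout 4 above every control. The log2 fold change was -0.06 (SE 0.10, edgeR adjusted p = 0.873), and it became 0.22 (adjusted p = 0.457) with the extraembryonic covariate. Sall4 was at 254, 271 and 262 CPM in controls and 243, 237 and 248 CPM in knockouts of the Ezh2 cross. Every knockout was below every control, by a small margin: the log2 fold change was -0.11 (SE 0.09, adjusted p = 0.863).

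Zfp281, a zinc-finger factor of pluripotent cells, lies on chromosome 1 (136624901 to 136630053 in GRCm38, plus strand). It had 73.6, 61.5, 73.1 and 63.6 CPM in Ehmt2-cross controls and 66.4, 64.7, 65.9 and 53.6 CPM in knockouts, with overlapping groups. Ezh2-cross controls had 61.9, 59.2 and 86.2 CPM and knockouts 50.8, 57.1 and 56.0 CPM, so that every knockout was below every control. The log2 fold changes were -0.12 (SE 0.11, edgeR adjusted p = 0.720) and -0.34 (SE 0.15, adjusted p = 0.718).

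Utf1 encodes a chromatin-associated protein of pluripotent cells and lies on chromosome 7 (139943789 to 139945112 in GRCm38, plus strand). It had 187, 127, 175 and 211 CPM in Ehmt2-cross controls and 132, 175, 149 and 165 CPM in knockouts. Its level was 102, 113 and 129 CPM in Ezh2-cross controls and 125, 94.5 and 139 CPM in their knockouts. The groups overlapped in both crosses, and the log2 fold changes were -0.16 (SE 0.13, edgeR adjusted p = 0.696) and 0.06 (SE 0.15, adjusted p = 0.963).

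Among the RNA-binding members, Lin28b was lower in knockouts of both crosses without passing the adjusted threshold in either. It lies on the minus strand of chromosome 10 (45376620 to 45470201 in GRCm38). In the Ehmt2 cross it had 127, 110, 121 and 101 CPM in controls and 58.4, 79.4, 97.5 and 98.6 CPM in knockouts. Every knockout was below every control, though knockout 4 lay only just below control 4, and the groups overlapped again when counts were not TMM-scaled. Its log2 fold change was -0.46 (SE 0.16, edgeR adjusted p = 0.273, unadjusted p = 0.014). In Ezh2-cross epiblasts it had 112, 93.4 and 121 CPM in controls and 80.0, 75.9 and 99.1 CPM in knockouts. Knockout 3 was above control 2, and the log2 fold change was -0.35 (SE 0.14, adjusted p = 0.670, unadjusted p = 0.031). The difference between the effects was -0.10 (SE 0.23, adjusted p = 0.939). With the extraembryonic covariate, the estimate in the Ehmt2 cross turned to 0.14 (adjusted p = 0.744) and that in the Ezh2 cross became -0.021 (adjusted p = 0.991).

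Lin28a, the paralog on chromosome 4 (minus strand, 134003330 to 134018841 in GRCm38), was 5.14 times as high as Lin28b per kb in Ehmt2-cross controls and 5.51 times in Ezh2-cross controls. In single epiblasts this ratio ranged from 4.22 to 5.97 in Ehmt2-cross controls, 4.26 to 7.96 in their knockouts, 4.89 to 6.68 in Ezh2-cross controls and 5.34 to 7.91 in Ezh2 knockouts. Lin28a had 436, 349, 467 and 275 CPM in Ehmt2-cross controls and 301, 296, 378 and 273 CPM in knockouts. This gave a log2 fold change of -0.27 (SE 0.12, edgeR adjusted p = 0.405, unadjusted p = 0.042), with overlapping groups, and it was 0.0031 (adjusted p = 0.995) with the extraembryonic covariate. Ezh2-cross controls had 378, 405 and 385 CPM and knockouts 410, 353 and 343 CPM, a log2 fold change of -0.07 (SE 0.10, adjusted p = 0.931).

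L1td1 lies on chromosome 4 as well (98726748 to 98738480 in GRCm38, plus strand). It had 279, 228, 280 and 297 CPM in Ehmt2-cross controls and 239, 218, 240 and 217 CPM in knockouts. Controls 1, 3 and 4 were above every knockout, and control 2 was not. Its log2 fold change was -0.24 (SE 0.10, edgeR adjusted p = 0.360, unadjusted p = 0.029). L1td1 was at 293, 237 and 205 CPM in Ezh2-cross controls and at 212, 270 and 350 CPM in knockouts, with a log2 fold change of 0.18 (SE 0.18, adjusted p = 0.893). Of the other L1td1 transcripts, those at 7.40% and 11.6% of its count had estimates of 0.065 and -0.0085 in the Ehmt2 cross, and the one at 91.9% had -0.28.

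**Figure D2:**
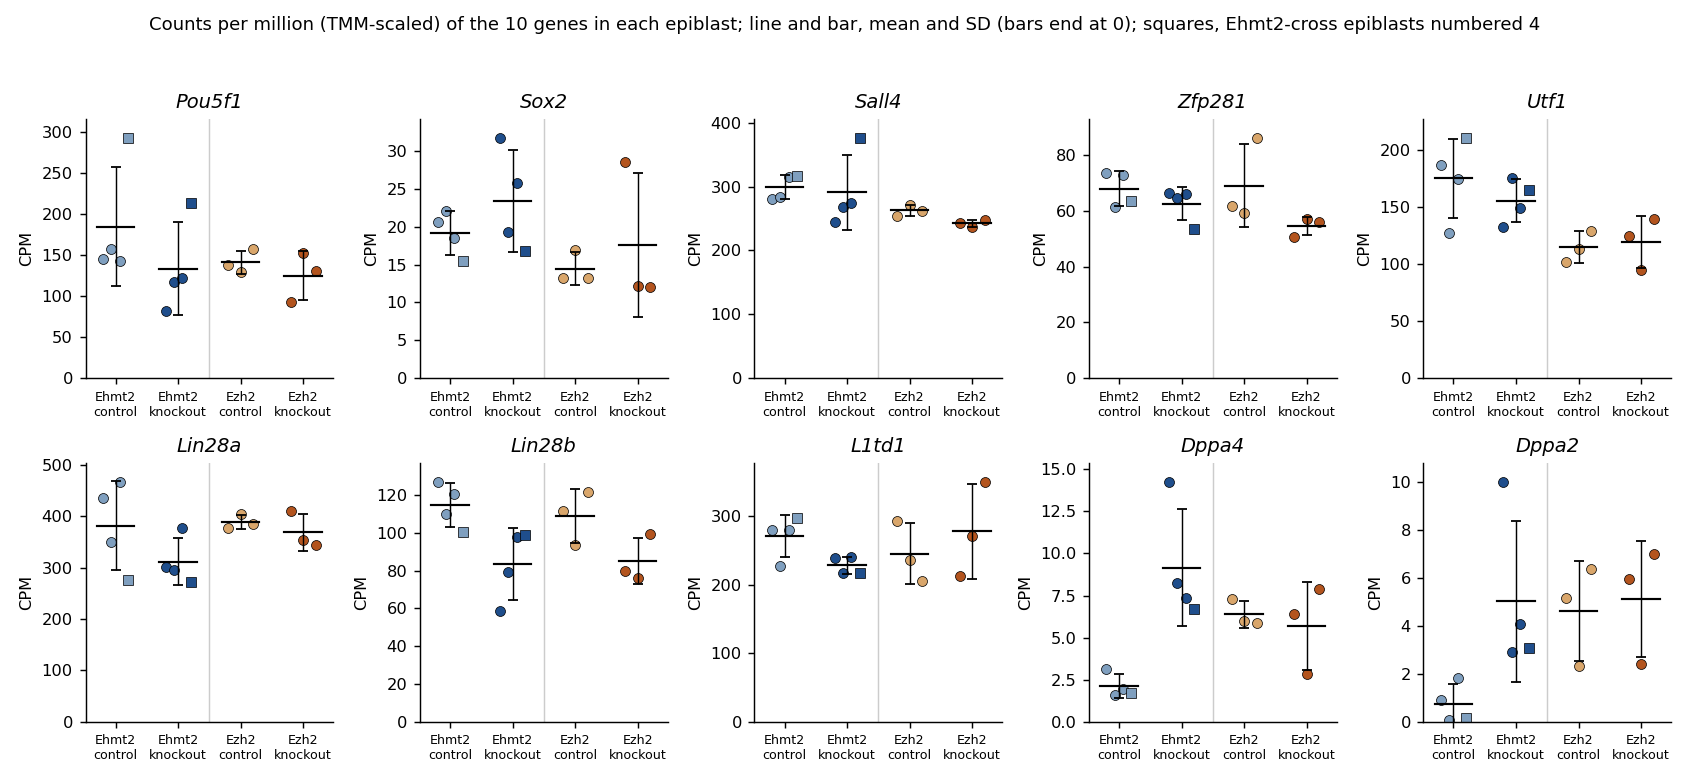
CPM of each gene (linear axes from 0) in every epiblast of the 4 groups, with the mean and SD of each group and the Ehmt2-cross epiblasts numbered 4 as squares. The Ehmt2 knockouts of Dppa4 (6.67 to 14.3 CPM) lie above their controls (1.61 to 3.15), as do those of Dppa2, and the other genes overlap or lie close, with Pou5f1 highest in both epiblasts numbered 4 (293 and 214).

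Dppa4 was the member with the clearest difference between Ehmt2 knockouts and their controls. It lies on chromosome 16 from 48283735 to 48294237 in GRCm38 (plus strand, 7 exons, 1479 bases). It had 3.15, 1.61, 1.95 and 1.71 CPM in Ehmt2-cross controls 1 to 4, from 126, 75, 73 and 91 counts, and 14.3, 8.26, 7.35 and 6.67 CPM in knockouts 1 to 4, from 499, 286, 282 and 400 counts. Every knockout was above every control, and the lowest knockout was above the highest control by more than the whole range of the controls. Its log2 fold change was 2.11 (SE 0.31, 95% interval 1.44 to 2.77, edgeR adjusted p = 0.0102). Against the controls of their own set, the knockouts were higher by 2.43, 1.68, 1.52 and 1.70 on the log2 scale of CPM + 0.5, where the last compares 1 knockout with 1 control. Both listed Dppa4 transcripts were called, the second with a log2 fold change of 2.11 (SE 0.35, adjusted p = 0.0200); they share sequence and are not independent measures.

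The call of Dppa4 was lost without the term for the comparison set (log2 fold change 2.12, adjusted p = 0.0603), without control 3 (2.04, adjusted p = 0.0646) and with the extraembryonic covariate (1.68, adjusted p = 0.131). The extraembryonic markers summed to 28.3 CPM in knockout 4 and 45 CPM in control 4, while their mean log2 level (of CPM + 0.5), the measure used as the covariate, was 0.30 and 0.14. In each of these epiblasts 4 of the 11 markers were at 0. The part of that tissue in the Dppa4 values was not tested beyond the covariate.

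Dppa2, which begins 16.2 kb after the end of Dppa4 by its counted transcript (chromosome 16, 48310477 to 48319723, plus strand, 7 exons, 1948 bases), was nearly silent in Ehmt2-cross controls. It had 0.901, 0.0643, 1.84 and 0.169 CPM there, from 36, 3, 69 and 9 counts, and 10.0, 2.92, 4.07 and 3.09 CPM in knockouts, from 350, 101, 156 and 185 counts. Every knockout was above every control, but the controls spanned a wide range. Its log2 fold change was 2.94 (SE 0.73, 95% interval 1.35 to 4.53, edgeR adjusted p = 0.116, unadjusted p = 0.0017). Dppa2 met the filter's minimum of 0.255 CPM in 2 of 4 controls and 4 of 4 knockouts, so it was tested because of its level in the knockouts. DESeq2 called it (adjusted p = 6.7e-04), as did edgeR without the filter on low counts (adjusted p = 0.0416).

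Neither gene passed the threshold with loss of Ezh2. Dppa4 had 7.31, 5.96 and 5.89 CPM in controls and 6.40, 2.81 and 7.87 CPM in knockouts, and Dppa2 had 5.15, 2.34 and 6.37 CPM in controls and 5.96, 2.41 and 7.00 CPM in knockouts. Among knockouts, both genes were lowest in number 2, and the groups overlapped. The log2 fold changes were -0.16 for Dppa4 (SE 0.35, 95% interval -0.94 to 0.61, edgeR adjusted p = 0.956) and 0.15 for Dppa2 (SE 0.45, interval -0.84 to 1.14, adjusted p = 0.967).

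The difference between the effects of the knockouts was tested in 1 fit over the 14 epiblasts. It was 2.27 for Dppa4 (SE 0.49, edgeR adjusted p = 0.144, unadjusted p = 2.5e-04) and 2.79 for Dppa2 (SE 0.97, adjusted p = 0.443, unadjusted p = 0.011), so neither difference passed the adjusted threshold with edgeR. DESeq2 called that of Dppa4 (adjusted p = 0.0024). Of the 10 genes, 0 were called for a difference by edgeR, against 0.0579% of the 55248 transcripts tested, and 2 had an unadjusted p under 0.05, against 8.33%. The other 8 differences lay between -0.43 (L1td1, SE 0.21, adjusted p = 0.626) and 0.22 (Zfp281, SE 0.19, adjusted p = 0.803).

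The controls of the crosses were not at the same level of these genes, a comparison made after their values had been seen. Dppa4 was at 1.61 to 3.15 CPM in Ehmt2-cross controls and 5.89 to 7.31 CPM in Ezh2-cross controls, and Dppa2 at 0.0643 to 1.84 and 2.34 to 6.37 CPM. The ranges of the Ezh2-cross controls overlapped those of the Ehmt2 knockouts (6.67 to 14.3 and 2.92 to 10.0 CPM). Of the 10 members, these 2 had every Ezh2-cross control above every Ehmt2-cross control (3.68% of 48372 transcripts did), and Sall4 had every one below (3.75%). The crosses differ in parents, litters and libraries, and these cannot be told apart.

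Within 500 kb of Dppa4 and Dppa2 on chromosome 16, 1 other gene was listed, Morc1, which was looked up after the values of Dppa2 and Dppa4 had been seen. It encodes a protein needed for transposon silencing in male germ cells and begins 112 kb after Dppa2. Morc1 had 0.150, 0.193, 0.721 and 0.0750 CPM in Ehmt2-cross controls and 1.43, 2.72, 1.67 and 3.22 CPM in knockouts. Every knockout was above every control, and the log2 fold change was 3.06 (SE 0.70, edgeR adjusted p = 0.0854, unadjusted p = 9.1e-04), which missed the threshold. Like Dppa2, Morc1 was tested because of its knockouts, of which 4 of 4 met the filter's minimum, against 1 of 4 controls. Knockout 4 was highest for Morc1 and lowest for Dppa4, so the epiblasts did not keep 1 order across these genes. With loss of Ezh2, Morc1 was at 0.420, 0.485 and 0.170 CPM in controls and 0.839, 0.295 and 0.341 CPM in knockouts (log2 fold change 0.45, SE 0.75, adjusted p = 0.947), and its Ezh2-cross controls overlapped those of the Ehmt2 cross.

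**Figure D3:**
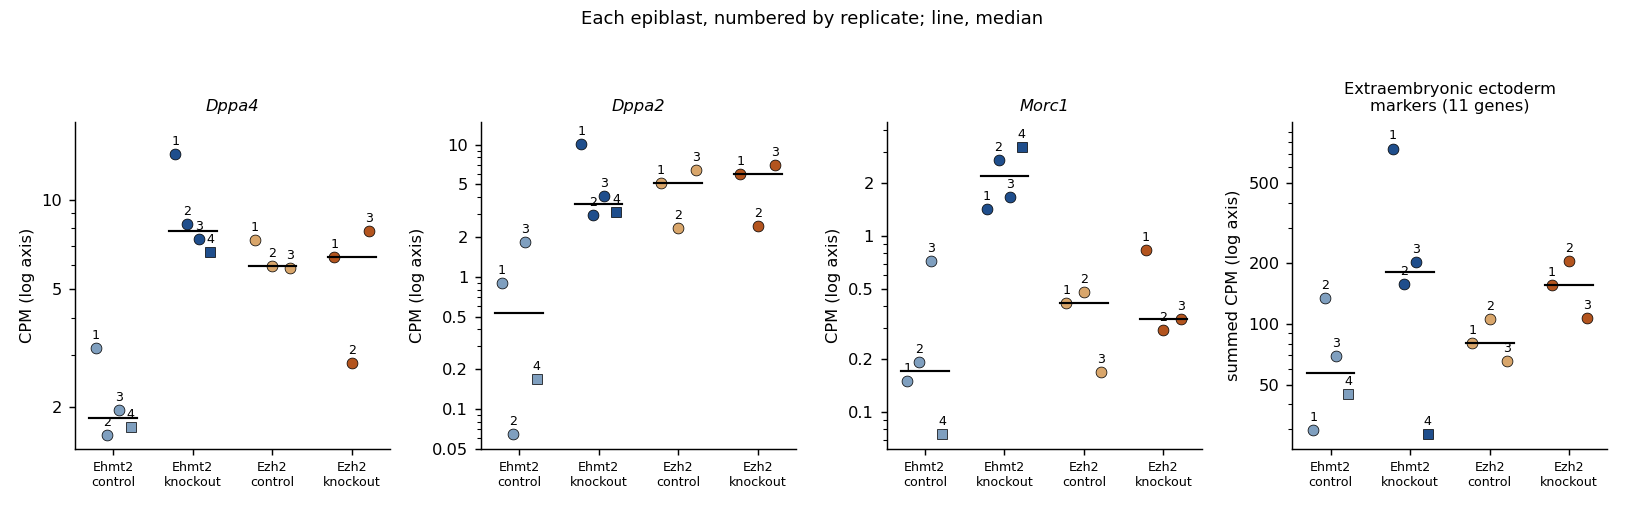
CPM of Dppa4, Dppa2 and Morc1 and summed CPM of 11 extraembryonic ectoderm markers (log axes) in every epiblast, numbered by replicate, with group medians as lines. For the 3 genes all Ehmt2 knockouts lie above all Ehmt2-cross controls, while the marker sums of the groups overlap, from 29.7 to 135 CPM in controls and from 28.3 to 745 CPM in knockouts. The mean log2 level of these markers (not drawn) was 2.90 to 4.39 in Ehmt2 knockouts 1 to 3, 0.30 in knockout 4 and 0.14 to 1.06 in controls.

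Counted together, 1 of the 10 genes was called in the Ehmt2 cross at an adjusted p under 0.05, against 0.67% of the 49872 transcripts tested, and it was higher (0.507% of transcripts were called higher and 0.162% lower). At an unadjusted p under 0.05, 2 were higher (Dppa4 and Dppa2), against 6.15%, and 4 were lower (Pou5f1, Lin28b, Lin28a and L1td1), against 5.62%. Every knockout was above every control for 2 genes, Dppa4 and Dppa2, against 2.55%, and below for 1, Lin28b, against 2.54%. Dppa2 passed the filter through its knockouts (4 of 4 at the minimum, against 2 of 4 controls), so it adds no support to the counts of higher genes. The median log2 fold change of the 10 genes was -0.14, beside 0.01 over 13738 tested genes. With both epiblasts numbered 4 left out, 1 gene was still called, Dppa4, and 3 genes rather than 1 had every knockout below every control.

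With loss of Ezh2, 0 of the 10 were called out of 50855 transcripts tested, and the 1 gene with an unadjusted p under 0.05 was lower, against 2.97% of transcripts. Every knockout was below every control for 2 genes, Sall4 and Zfp281, against 6.68%, and above for 0, against 6.44%. The median log2 fold change was -0.09, beside 0.03 over 13998 tested genes.

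**Figure D4:**
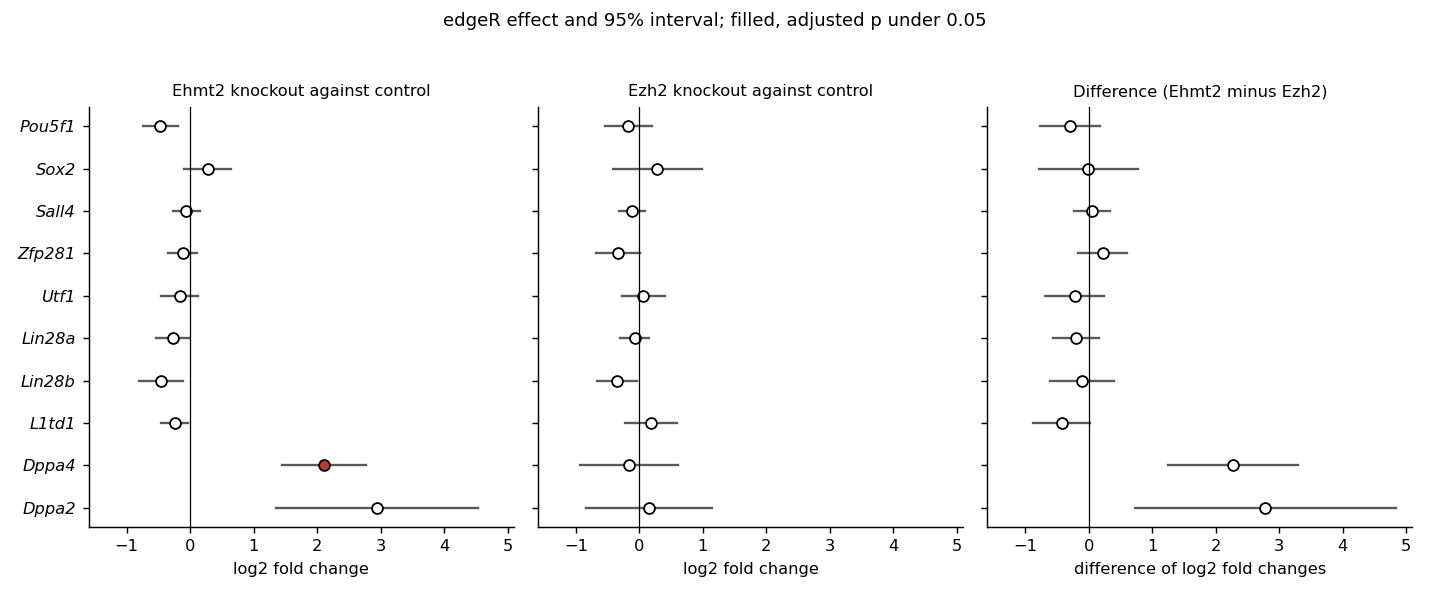
Log2 fold change with 95% interval of each gene in the Ehmt2 cross (left), the Ezh2 cross (middle) and the difference between them (right), with a filled point where the edgeR adjusted p is under 0.05. Dppa4 in the Ehmt2 cross (2.11, interval 1.44 to 2.77) is the only filled point, and the wide interval of Dppa2 (1.35 to 4.53) also lies above 0.

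Genes that work with these factors were described from lists of known genes, each beside the median over all tested genes (0.01 in the Ehmt2 cross and 0.03 in the Ezh2 cross). Of 25 cofactors of OCT4, SOX2 and SALL4, 0 were called in either cross. In the Ehmt2 cross 21 of them had estimates below 0 (median -0.12), 6 of these with an unadjusted p under 0.05 (5.62% of all transcripts were lower at that p), and 2 were higher at that p (6.15%). In the Ezh2 cross 16 were below 0 (median -0.05), again 6 at that p, against 2.97%, and 0 were higher. Those with the largest estimates were Klf5, a Krüppel-like factor (2.31, SE 0.47, edgeR adjusted p = 0.0526), and Mta1, a subunit of the NuRD deacetylase complex (-0.56, SE 0.15, adjusted p = 0.140), in the Ehmt2 cross. Those in the Ezh2 cross were Sall3, a paralog of Sall4 (-0.80, SE 0.34, adjusted p = 0.690), and the histone chaperone Rbbp4 (-0.44, SE 0.12, adjusted p = 0.525). Klf5 was at 0.375 to 2.00 CPM in Ehmt2-cross controls and at 0.484 to 17.6 CPM in knockouts, with overlapping groups.

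Of the 14 listed genes of the LIN28 and let-7 pathway, all were tested and 0 were called in either cross. The medians were -0.03 and -0.05. Dis3l2, the exonuclease that degrades uridylated pre-let-7, had the largest estimate in both (-0.64, SE 0.39, edgeR adjusted p = 0.566 and 0.36, SE 0.45, adjusted p = 0.921). The next were the uridylyltransferase Tut7 in the Ehmt2 cross (0.29, SE 0.14, adjusted p = 0.455) and Hmga2, a let-7 target, in the Ezh2 cross (0.35, SE 0.12, adjusted p = 0.580).

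Of 13 tested POU and SOX paralogs, 2 were called in the Ehmt2 cross, against 0.67% of all transcripts. These calls, like those of Esrrb (a naive gene) and Sall2 (a formative gene), were lost with the extraembryonic covariate and without the comparison set. In both fits 0 genes of these lists were called. Esrrb is 1 of the 11 markers averaged in that covariate, so the loss of its call there is not an independent result. Sox11 fell, from 25.9 to 33.1 CPM in controls to 16.1 to 22.8 CPM in knockouts (log2 fold change -0.73, SE 0.14, edgeR adjusted p = 0.0388), and its estimate in the Ezh2 cross was -0.39 (SE 0.15, adjusted p = 0.656). Sox21 was called higher (4.28, SE 0.85, adjusted p = 0.0468), although its knockouts ranged from 0 to 23.7 CPM and its controls from 0.0375 to 0.686 CPM, with overlapping groups. With loss of Ezh2, 0 of 12 were called, and Sox21 had 1.09 (SE 0.87, adjusted p = 0.858). The median of these paralogs was -0.24 in the Ehmt2 cross and -0.07 in the Ezh2 cross.

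DPPA2 and DPPA4 bind and activate genes of the early embryo in stem cells. Of 11 such genes, 8 were listed and 2 passed the filter in each cross. Dppa3, a maternal and germ cell factor, had a log2 fold change of 0.60 in the Ehmt2 cross (SE 0.49, edgeR adjusted p = 0.689) and 1.05 in the Ezh2 cross (SE 0.45, adjusted p = 0.691). Zfp352 had -0.22 (SE 0.77, adjusted p = 0.944) and -0.81 (SE 0.93, adjusted p = 0.909). The other 6 did not pass the filter and were not tested. They had 0 counts in every Ezh2-cross epiblast. In the Ehmt2 cross, Zscan4c, Zscan4d and Zscan4f, near-identical copies of a gene family, had 0 counts in every control and at most 63, 21 and 8 counts in a knockout.

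Of 6 tested naive pluripotency genes, 1 was called in the Ehmt2 cross, higher, against 0.507% of all transcripts: Esrrb, an orphan nuclear receptor, had 0.0187 to 0.561 CPM in controls and 1.12 to 40.5 CPM in knockouts (log2 fold change 5.33, SE 0.63, edgeR adjusted p = 0.0031). Every Esrrb knockout was above the filter's minimum of 0.255 CPM and its lowest control was below it, so Esrrb was tested because of its knockouts. Esrrb is also among the extraembryonic ectoderm markers and is thus part of the covariate. With loss of Ezh2, 0 of 6 were called, and Esrrb had an estimate of 3.28 (SE 0.84, adjusted p = 0.437). The median of the naive genes was 0.55 in the Ehmt2 cross and 0.96 in the Ezh2 cross, with 5 of 6 above 0 in each. Of 10 formative and primed epiblast genes, 1 was called lower in the Ehmt2 cross, against 0.162%: Sall2, a paralog of Sall4, which fell from 109 to 151 CPM to 57.7 to 89.1 CPM (log2 fold change -0.74, SE 0.14, adjusted p = 0.0393). The list's median was -0.37 there and -0.08 in the Ezh2 cross, where 0 were called. Of the markers of visceral endoderm, primitive streak, and decidua and blood, 0 were called in either cross by edgeR.

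Likeness across the 14 epiblasts is given as a description only, since groups, crosses and libraries are shared by all genes. Among genes with a mean of at least 10 CPM, those with the highest Pearson correlation of log2(CPM + 0.5) with Pou5f1 were Igfbp2 (0.94), Pebp1 (0.92) and Ndufv3 (0.91). For Sox2 they were Zfp386 (0.85), Hacd2 (0.84) and Fgfr2 (0.81), and for Dppa4 Rapgef2 (0.85), Fermt2 (0.84) and F2rl1 (0.82). Between members, Dppa2 and Dppa4 had a correlation of 0.87, and 0.71 after each group's mean was removed. Pou5f1 and Sox2 had -0.55 and -0.76, and Lin28a and Lin28b 0.46 and 0.26.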

How the data were processed

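Single-epiblast RNA-seq libraries were used for 14 of the 59 samples of the series; the other 45 were not used here. The authors trimmed reads to 40 nt, aligned them with TopHat2 to GRCm38, counted them with HTSeq per Ensembl release 74 transcript and deposited these raw counts. Versions and strand settings are not given in the sources used here. Isoforms share reads, so CPM is relative to the sum over all transcripts. A transcript not listed in an epiblast was given a count of 0. Rows of unaligned reads in both Ehmt2-cross epiblasts numbered 4 (12.6% and 13.3% of their rows' sum) were left out. Of 72515 transcripts, 70021 (96.6%) matched GENCODE vM21.

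Each cross was fitted separately with edgeR 4.0.16 in R 4.3.3: filterByExpr (minimum count 10), TMM, glmQLFit and glmQLFTest, with a term for the comparison set in the Ehmt2 cross and Benjamini-Hochberg adjustment over all transcripts, called at 0.05. SE is the log2 fold change over the square root of F. CPM was scaled over the 14 epiblasts together. The knockout effects were compared in 1 fit. DESeq2 1.42.0, other scalings, filters, covariates and left-out epiblasts were alternatives. The code was tested on simulated data. Intervals give the uncertainty of the estimated mean effect, based on the variation between epiblasts, and not the range of single epiblasts. Shared litters were not modelled.

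The members and lists were chosen with earlier results of these data known. Besides the members and targeted genes, the genes named were those called in each list, otherwise at most the 2 with the largest estimates, and the 3 genes most like Pou5f1, Sox2 and Dppa4. Same-numbered epiblasts correlated above 0 throughout in the Ehmt2 cross but not in the Ezh2 cross. Numbers were not taken as pairs in the main fits. Protein sequences were not analysed here.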

Additional observations from a re-analysis of the deposited data

Results flagged for a closer look

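In 3 of the 20 groups of 4 epiblasts tested, 1 epiblast lay far from the others by Dixon's test, which chance gives in about 1 group in 20. Pou5f1 was at 293 CPM in Ehmt2-cross control 4, against 143 to 158 in the other controls. Zfp281 was at 53.6 CPM in Ehmt2 knockout 4, against 64.7 to 66.4. Dppa2 was at 10.0 CPM in Ehmt2 knockout 1, against 2.92 to 4.07. Without knockout 1, the log2 fold change of Dppa4, which was also highest there, was 1.85 (edgeR adjusted p = 0.0275). The first 2 values come from the epiblasts that stand apart as libraries, and the part of this in them was not tested.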

How the results depend on the processing

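Dppa4 stayed called in the Ehmt2 cross in 7 of the 8 fits that left out 1 epiblast, with log2 fold changes of 1.85 to 2.33 and edgeR adjusted p of 0.0132 to 0.0646 over the 8, and lost its call without control 3. The number of members called there was 3 with DESeq2, 2 without the filter on low counts, 0 without the comparison set, 0 with the extraembryonic covariate and 0 to 1 with 1 epiblast left out. DESeq2 called 1 member for the difference between crosses. The listed pathway genes called in the Ehmt2 cross, 4 as reported, were 9 with DESeq2, 8 without the filter, 0 with the covariate, 0 without the comparison set, 9 without both epiblasts numbered 4 and 1 to 9 with 1 epiblast left out (9 without control 4 or without knockout 4, 1 without control 1, control 3 or knockout 1). In the Ezh2 cross, 0 as reported, they were 2 with DESeq2 and 1 without the filter. The covariate contains Esrrb, which is 1 of the 4 genes called as reported in the Ehmt2 cross.

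Replicate numbers do not mark a shared litter in the labels. In the Ehmt2 cross, deviations of same-numbered epiblasts correlated at 0.06 to 0.42 (mean 0.20), and of differently numbered ones at -0.28 to 0.20 (mean -0.05). The highest value, 0.42, was between the epiblasts numbered 4. In the Ezh2 cross the ranges were -0.18 to 0.23 (mean 0.03) and -0.29 to 0.26 (mean -0.01). With the replicate block, 1 pathway gene was called in the Ehmt2 cross, Dppa4 kept its call (adjusted p = 0.0140), the Sox2 difference between crosses turned to 0.10, and no other call on a member changed.

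Members at their reported rank of level were 3 of 10 (Ehmt2 cross) and 1 of 10 (Ezh2 cross) when the counts of all listed transcripts were summed, which counts shared reads repeatedly, and 8 to 10 with 1 control left out. Members with every knockout below every control numbered 0 without TMM, 3 without both epiblasts numbered 4 and 1 to 3 with 1 left out in the Ehmt2 cross, and 2 to 4 with 1 left out in the Ezh2 cross.

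Directions that turned belonged to estimates that had not passed the threshold, and the cause was not tested. With the covariate, Ehmt2-cross estimates became -0.10 for Sox2, 0.22 for Sall4, 0.0031 for Lin28a and 0.14 for Lin28b, Ezh2-cross estimates 0.11 for Pou5f1, -0.65 for Sox2 and 0.21 for Dppa4, and the difference for Lin28b 0.094. Other transcripts of Sall4 gave 0.011 and 0.19 and one of L1td1 0.065 in the Ehmt2 cross. The Sox2 difference was 0.0078 without the comparison set and 0.043 without both epiblasts numbered 4, where that of Sall4 was -0.053. With 1 epiblast left out, Ezh2-cross estimates spanned -0.34 to 0.0024 for Pou5f1, -0.26 to 0.49 for Sox2, -0.067 to 0.21 for Utf1, -0.17 to 0.49 for Dppa2, -0.48 to 0.16 for Dppa4 and -0.025 to 0.34 for L1td1, and differences -0.22 to 0.52 for Sox2, -0.048 to 0.11 for Sall4 and -0.25 to 0.042 for Lin28b. Among the alternatives other than leaving out 1 epiblast, 257 estimates for single members kept direction and side of the threshold. Of the rest, 15 turned direction, 4 gained a call and 2 lost it. With 3 or 4 epiblasts a group and levels down to 3 counts, small changes of Dppa2 were not detectable.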
